A study of Mus musculus with 18 samples.

Results

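Mouse embryonic fibroblasts of 2 of the 6 groups in this series carried about 5.7 FPKM of Ago2 mRNA, and the other 4 groups carried 15.5 FPKM or more. The 2 Ago2-low groups, 6 of 18 libraries, were the group labelled Ago2+/+ tunicamycin and the group labelled Ago2-/- DMSO, which share neither the labelled genotype nor the treatment. The groups were chosen by their measured level of Ago2 in these same values, so that every difference between both sides below is a description without a test. Autosomal loci were then sorted by a gap, the lower log2(FPKM + 1) of the Ago2-low groups minus the highest of the 4 other groups, or the reverse. A gap of at least 1, below a call, was met by 361 of 12214 loci for higher (2.96%) and by 237 of 12214 for lower (1.94%) levels in both Ago2-low groups. These 12214 loci, called the pool below, are the autosomal loci of 1 gene symbol with at least 1 FPKM in at least 1 group, out of 51499 loci in all.

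Ago2 encodes an Argonaute protein, which binds small RNAs and uses them as guides to find mRNAs. It is the Argonaute of mammals best known for cutting its target, and with its relatives it also carries out silencing by microRNAs, which shortens the life of many mRNAs and lowers their translation. Fibroblasts from embryos differ in the body region and lineage they came from, and cultured lines keep much of that positional identity in their Hox genes and other transcription factors.

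The experiment asked whether AGO2 lowers particular mRNAs when the endoplasmic reticulum (ER) is stressed. Cultured fibroblasts labelled Ago2+/+ or Ago2-/- received DMSO, the solvent, or tunicamycin, which blocks N-linked glycosylation, or thapsigargin, which empties the ER of calcium. Tunicamycin was used at 3 µg/ml and thapsigargin at 500 nM, both for 6 h, and each of the 6 groups has 3 libraries. The deposited table holds 1 FPKM per locus and group, that is fragments scaled by transcript length and by the number mapped, so the values carry no replicate error.

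Library titles of the Ago2+/+ groups carry the name DCR1, for which no source used here states a reason. For 4 libraries the labels conflict on genotype, and 2 of these lie in the Ago2-low groups, 1 in each. Neither the deleted part of Ago2 nor whether each genotype is 1 line or clone is stated there. Groups are therefore called by their labels only. The depth of the libraries is unknown because the table holds no counts, and the number of libraries limits the precision. Summed FPKM ranged from 562000 to 644000 between groups.

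Over the pool, the groups fell into 3 pairs that cross both the genotype and the treatment labels. The Ago2-low groups differed from each other by a median of 0.0803 on the log2(FPKM + 1) scale, the smallest of the 15 distances between groups, and by at least 1 at 146 loci (1.2%). The other 4 groups formed the pair of Ago2+/+ thapsigargin and Ago2-/- tunicamycin, at 0.105, and the pair of Ago2+/+ DMSO and Ago2-/- thapsigargin, at 0.147. Every distance between groups of different pairs was larger, from 0.334 to 0.439. The Ago2-low pair lay at 0.346 to 0.373 from the pair with Ago2+/+ DMSO and at 0.41 to 0.439 from the pair with Ago2+/+ thapsigargin. Groups with the same label of genotype, such as Ago2+/+ tunicamycin and Ago2+/+ DMSO at 0.346, were thus farther apart than the groups within a pair. With 1 pooled value per group, genotype, treatment and the origin of the cells cannot be told apart on the Ago2-low side. Whether labels or columns were exchanged before the table was made was not tested, and every value is given under its deposited label.

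**Figure D1:**
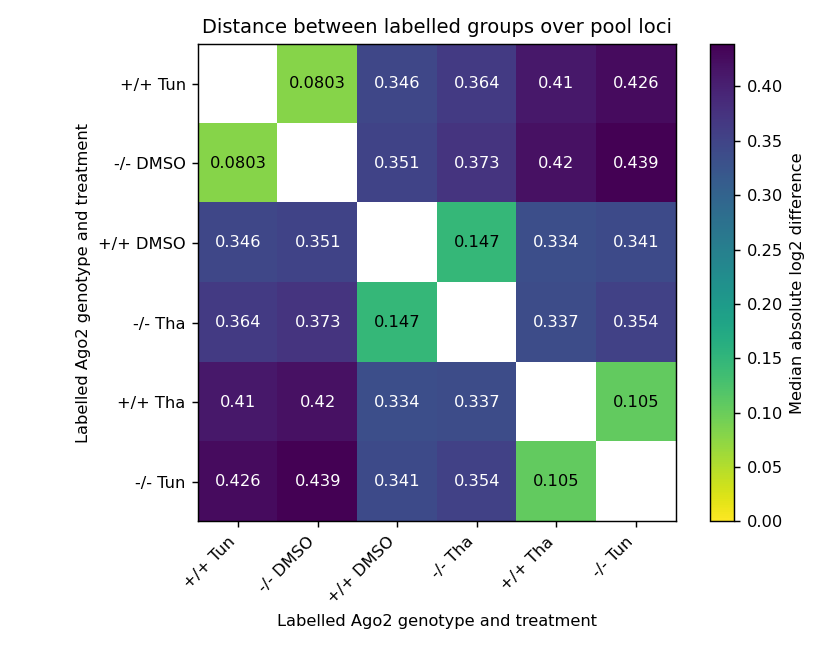
Median absolute difference in log2(FPKM + 1) over 12214 pool loci for each of the 15 pairs of groups, named on both axes by labelled Ago2 genotype and treatment (Tun, tunicamycin; Tha, thapsigargin). The green cells mark 3 pairs, and the Ago2-low pair at the upper left is the closest of them at 0.0803.

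Values are given below in a fixed order: Ago2+/+ tunicamycin and Ago2-/- DMSO for the Ago2-low pair, then Ago2+/+ DMSO, Ago2-/- thapsigargin, Ago2+/+ thapsigargin and Ago2-/- tunicamycin for the other groups. Ago2 (chromosome 15, 73095844 to 73184935, minus strand, GRCm38) was at 5.75 and 5.61 FPKM against 22.1, 20.7, 17.0 and 15.5 FPKM. The smallest ratio between any other group and any Ago2-low group was 2.70, and the difference between both Ago2-low groups was 0.03 on the log2 scale. Ago2 mRNA was thus present in all 6 groups and lower in the pair that these values chose. In bulk RNA, fewer cells with a transcript and less of it per cell cannot be told apart.

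The other Argonautes did not separate the groups in the same way. Ago1 was at 10.7 and 10.1 FPKM in the Ago2-low pair against 8.28, 8.30, 13.8 and 14.9 FPKM. Ago3 was at 8.72 and 7.31 FPKM against 6.47, 5.36, 8.94 and 7.34 FPKM. In both genes the Ago2-low pair lay inside the range of the other groups or overlapped with it. Ago4 stayed under 1 FPKM in all 6 groups. Dicer1, which cuts the precursors of microRNAs, was at 32.0 and 32.7 FPKM against 24.9, 32.6, 18.7 and 17.5 FPKM, and so overlapped with the group Ago2-/- thapsigargin. Of 11 genes of the Argonaute and microRNA pathway in the pool, only Ago2, whose level chose the groups, was called lower, and none was called higher. With pool shares of 1.94% and 2.96%, the lack of other calls is not a result. Without overlap, 5 were higher and 1 lower, against 26.4% and 26.2% of the pool. The scaffold of silencing Tnrc6a came nearest to a higher call, at 45.3 and 40.6 FPKM against 20.1 to 21.95 FPKM.

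Spp1, which encodes osteopontin, a secreted phosphoprotein of bone and of activated cells, was at 1214 and 2015 FPKM in the Ago2-low pair. In the other groups it was at 256.3 and 461.4 FPKM (Ago2+/+ DMSO and Ago2-/- thapsigargin) and at 16.02 and 20.1 FPKM (Ago2+/+ thapsigargin and Ago2-/- tunicamycin). The smallest ratio was 2.63. The locus of Spp1 holds 2 Ensembl identifiers, so that its value may cover more than 1 gene. The gene therefore showed 3 levels, 1 for each pair, and the Ago2-low pair held the highest. Spp1 was given with Ago2 as a marker of this comparison, so that its place was known beforehand.

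**Figure D2:**
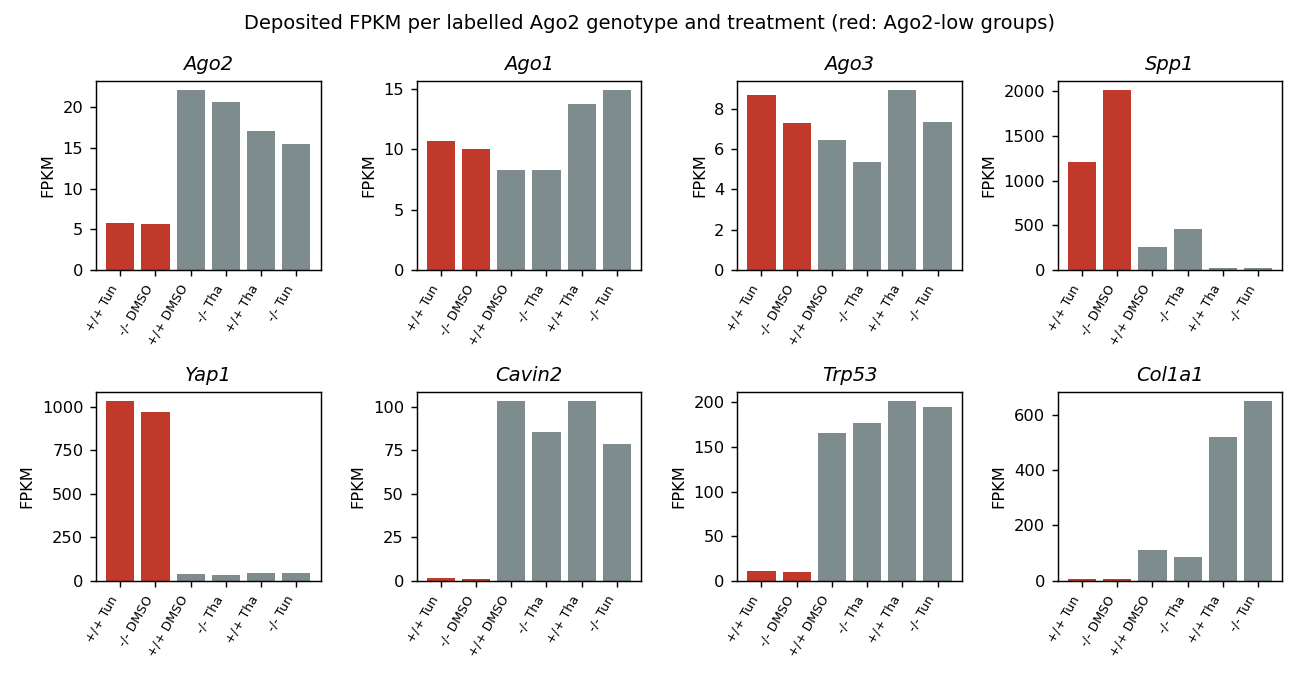
Bars give the deposited FPKM, 1 pooled value per group on a linear axis, for Ago2, Ago1, Ago3, Spp1, Yap1, Cavin2, Trp53 and Col1a1 in the 6 groups, with the Ago2-low groups in red. Ago2, Cavin2, Trp53 and Col1a1 are lower and Spp1 and Yap1 higher in both red groups than in all 4 grey ones, while Ago1 and Ago3 overlap.

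Promoter sequences are shown for 4 of the leading members, with Yap1 and Igfbp3 from the higher and Trp53 and Cavin2 from the lower side, because these genes open the results below. Each runs from 250 bases before to 50 after the start of the gene, 300 bases in all, and comes from RefSeq on GRCm38.p6. Capitals mark GGAATG, the core motif of the TEAD factors with which the YAP protein acts, searched on both strands.
Yap1, chr9:8004547-8004846, minus strand: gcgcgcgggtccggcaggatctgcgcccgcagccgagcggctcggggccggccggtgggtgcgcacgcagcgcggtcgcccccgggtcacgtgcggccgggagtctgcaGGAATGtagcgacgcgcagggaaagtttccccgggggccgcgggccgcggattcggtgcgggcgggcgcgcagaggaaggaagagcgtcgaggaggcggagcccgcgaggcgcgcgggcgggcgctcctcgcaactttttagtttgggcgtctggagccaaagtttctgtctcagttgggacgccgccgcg
Igfbp3, chr11:7213874-7214173, minus strand: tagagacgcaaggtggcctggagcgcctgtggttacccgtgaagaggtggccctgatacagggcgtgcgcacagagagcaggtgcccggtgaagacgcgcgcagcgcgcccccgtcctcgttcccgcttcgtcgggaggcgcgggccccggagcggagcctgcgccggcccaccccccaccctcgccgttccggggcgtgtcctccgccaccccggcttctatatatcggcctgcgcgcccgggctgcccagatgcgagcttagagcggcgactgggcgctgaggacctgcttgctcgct
Trp53, chr11:69580109-69580408, plus strand: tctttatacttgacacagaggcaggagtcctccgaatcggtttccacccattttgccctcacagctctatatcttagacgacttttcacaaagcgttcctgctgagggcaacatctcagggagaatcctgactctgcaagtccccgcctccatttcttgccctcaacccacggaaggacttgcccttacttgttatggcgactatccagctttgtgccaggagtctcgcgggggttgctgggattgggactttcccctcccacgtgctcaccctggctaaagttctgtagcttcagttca
Cavin2, chr1:51288876-51289175, plus strand: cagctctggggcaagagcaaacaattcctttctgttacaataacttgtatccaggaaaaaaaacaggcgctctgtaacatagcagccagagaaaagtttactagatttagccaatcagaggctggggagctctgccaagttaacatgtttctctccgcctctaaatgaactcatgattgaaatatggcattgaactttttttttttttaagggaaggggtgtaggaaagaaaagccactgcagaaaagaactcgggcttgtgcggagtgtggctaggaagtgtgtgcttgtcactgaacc

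The window of Yap1 held 1 match, which starts 141 bases before the start of the gene, and the other 3 windows held none. The share with a match was 12.6% of 239 higher genes with a promoter in the table, 21.3% of 164 lower genes and 13.9% of 8468 pool genes, and it was 14.7% over all promoters of the table. A match is a description of letters, and these shares were not tested. The 4 windows range widely in composition, with 49 CpG in Yap1, 37 in Igfbp3, 10 in Trp53 and 4 in Cavin2. Over the called genes, the median GC content of the promoter was 58.0% for the higher and 59.5% for the lower genes, against 61.3% for the pool.

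Among the 361 higher loci, 144 were under 1 FPKM in all 4 other groups, and 18 were listed at 0 in all of them. The median gap was 1.57, 106 loci had a gap of at least 2 and 46 of at least 3. Protein-coding genes made up 86.7% of the higher and 92.4% of the lower loci, against 82.3% of the pool. Within the higher loci the Ago2-low groups differed from each other by a median of 0.132 on the log2 scale. At 1 of them that difference exceeded the gap. This was Afap1l2, an adaptor protein of Src signalling named here after its values were seen, at 3.92 FPKM in Ago2+/+ tunicamycin and 152 FPKM in Ago2-/- DMSO against 0.0253 to 1.33 FPKM.

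The largest gap was that of Aldh3a1, an aldehyde dehydrogenase. Aldh3a1 (chromosome 11, 61207537 to 61218421, plus strand) was at 113 and 104 FPKM in the Ago2-low pair against 0.0434, 0.0896, 0.0158 and 0.0455 FPKM. Its gap was 6.60. Cp, which encodes the copper ferroxidase ceruloplasmin, was at 112 and 140 FPKM against 0.330, 0.285, 0.453 and 0.652 FPKM. Igfbp3, a carrier of insulin-like growth factors, was at 60.7 and 59.7 FPKM against 0, 0, 0.0654 and 0.138 FPKM. These 3 secreted or metabolic genes were thus abundant in both Ago2-low groups and under 1 FPKM in each of the others.

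A second set combined high levels in the Ago2-low pair with a clear level elsewhere. Yap1 encodes the coactivator held in check by the Hippo pathway. Yap1 (chromosome 9, 7931999 to 8004596, minus strand) was at 1035 and 972.5 FPKM against 35.95, 34.7, 42.4 and 43.3 FPKM, a ratio of at least 22.4. The gene was at a similar level in the 4 other groups and far above it in both Ago2-low groups.

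Dcun1d5, a factor of cullin neddylation, was at 935 and 989 FPKM against 58.05 to 63.4 FPKM. Dync2h1, the heavy chain of the dynein of cilia, was at 66.0 and 65.9 FPKM against 1.87 to 2.66 FPKM. Dcun1d5 and Dync2h1 both lie near Yap1. Cep126, a protein of the centrosome and cilium, was at 182 and 122.5 FPKM against 0.126 and 0.174 FPKM in the pair of Ago2+/+ DMSO and Ago2-/- thapsigargin, and against 3.88 and 2.88 FPKM in the remaining pair.

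Several leading members were listed at 0 or near it in all other groups. Hoxc8 was at 25.1 and 25.6 FPKM, and Cdh6, a cadherin, at 23.2 and 23.3 FPKM, with both listed at 0 in the 4 other groups. Zic1, a zinc finger factor of neural and dermal development, was at 12.9 and 12.6 FPKM and also listed at 0 elsewhere. Pax3, a factor of the neural crest and of muscle progenitors, was at 18.1 and 17.2 FPKM against at most 0.00557 FPKM. The remaining leading members with large gaps were Prl2c2, a hormone of the prolactin family, Wdr49, the growth factor carrier Fgfbp1, the transporter Slc16a13, the kinase Prkcb, Hoxc6 and Ifitm1, an interferon-induced membrane protein. They lay between 15.5 and 94.5 FPKM in the Ago2-low pair and at no more than 1.80 FPKM in the other groups. Prl2c2 has near-identical relatives, among which its fragments could be split.

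**Figure D3:**
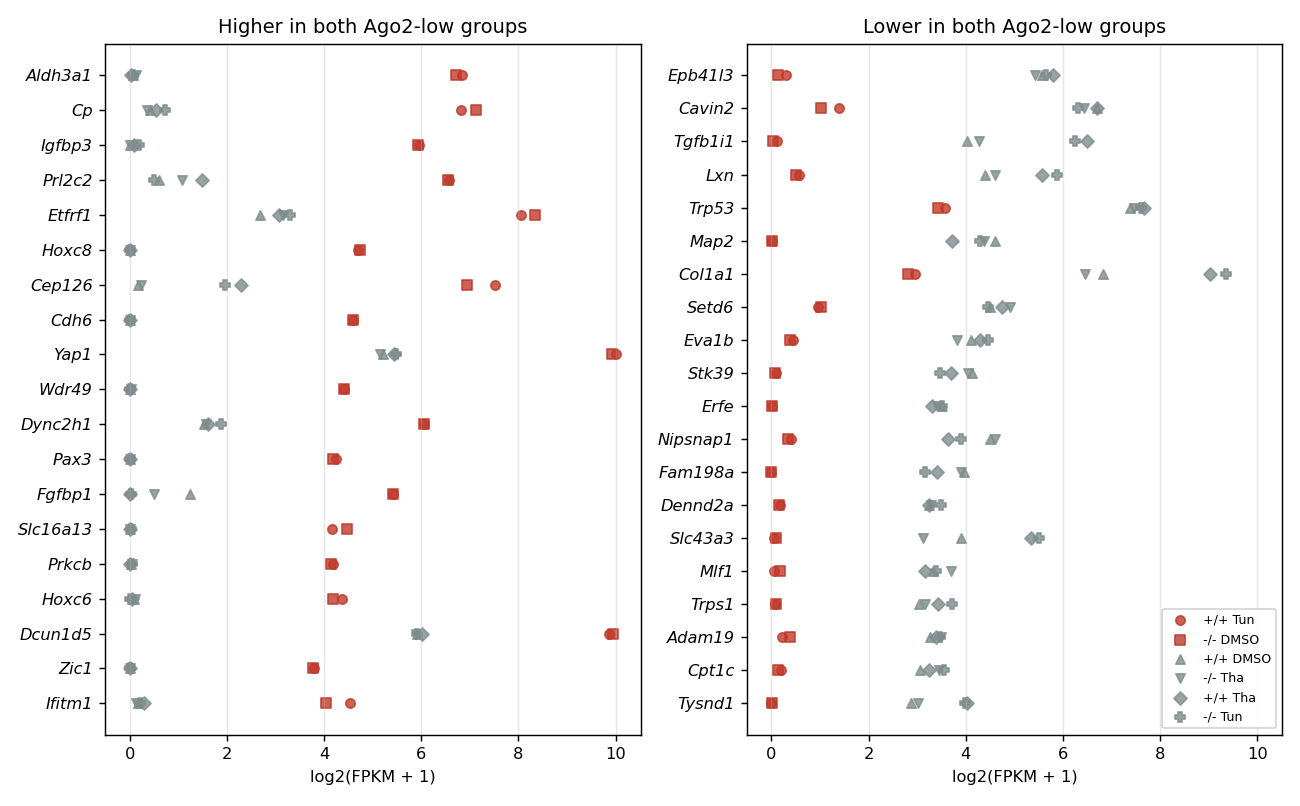
Each symbol is the log2(FPKM + 1) of 1 group, for leading higher and lower genes by the size of the gap, with the Ago2-low groups in red and the 4 other groups in grey. In every row both red symbols lie on the same side of all grey ones, as the choice of the genes requires, and in Col1a1, Tgfb1i1 and Slc43a3 the grey symbols split into 2 levels.

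Lower loci numbered 237, of which 121 were under 1 FPKM in both Ago2-low groups and 9 were listed at 0 in both. Their median gap was 1.44, with 65 loci at a gap of at least 2 and 15 of at least 3. The Ago2-low groups differed from each other by a median of 0.0639 at these loci, and at 0 of them by more than the gap. Epb41l3, a protein that ties the membrane to the cytoskeleton, had the largest gap, 5.13. It was at 0.226 and 0.101 FPKM against 46.6, 41.9, 54.6 and 49.5 FPKM.

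Cavin2, a coat protein of caveolae, was at 1.63 and 1.03 FPKM against 104, 85.8, 104 and 78.9 FPKM, a ratio of at least 48.5. Trp53, the tumour suppressor p53 (chromosome 11, 69580359 to 69591873, plus strand), was at 10.95 and 9.79 FPKM against 165, 176, 202 and 195 FPKM, a ratio of at least 15.1. Col1a1, the main chain of type I collagen (chromosome 11, 94936224 to 94953042, plus strand), was at 6.77 and 5.97 FPKM against 112, 87.1, 521 and 651 FPKM. For Cavin2 and Trp53 the 4 other groups were at similar levels, whereas Col1a1 was far higher in 1 pair of them.

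Other leading members on the lower side had varied roles. Tgfb1i1, an adaptor of focal adhesions, was at 0.0769 and 0.0230 FPKM against 15.2, 18.3, 89.5 and 74.6 FPKM. Map2, a microtubule protein known from neurons, was at 0.00243 and 0.00909 FPKM against 23.2, 19.9, 12.2 and 18.5 FPKM. Lxn, an inhibitor of carboxypeptidases, was at 0.476 and 0.427 FPKM against 20.0 to 58.2 FPKM. Setd6, a lysine methyltransferase, was at 0.933 and 1.03 FPKM against 21.1 to 28.9 FPKM. The kinase Stk39, the hormone Erfe, Nipsnap1, Fam198a, Dennd2a, the transporter Slc43a3, Mlf1, the transcription factor Trps1, the metalloprotease Adam19, Cpt1c, the peroxisomal protease Tysnd1 and the membrane protein Eva1b completed the 20 leading genes. All of them were under 1 FPKM in both Ago2-low groups, and Fam198a, whose locus holds 3 identifiers, was listed at 0 in both.

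The rule has a threshold at a gap of 1. Just inside it on the higher side lay Padi2 (1.90 and 2.03 FPKM against at most 0.45) and Krt13 (3.67 and 5.11 FPKM against at most 1.34), and just outside it lay the metallothionein Mt1 (189 and 195 FPKM against at most 94.0) and the hormone Stc2 (13.7 and 14.9 FPKM against at most 6.37). On the lower side Evl (12.2 and 11.2 FPKM against at least 25.3) and Mknk2 (15.3 and 14.2 FPKM against at least 31.7) lay just inside. Wnt10b (2.51 and 2.34 FPKM against at least 6.03) lay just outside. Groups that merely do not overlap were far more common: 3226 loci (26.4%) were higher and 3197 (26.2%) lower in both Ago2-low groups than in all 4 others.

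The share of pool loci called higher ranged from 1.29% to 5.91% between chromosomes, with no test of the spread. Called loci that are neighbours in the pool formed 9 runs of at least 3, all of them on the higher side, with 36 loci in all. These runs and their genes were picked out after the values were seen and are given without a test. Among them, 1 run held Yap1 and its neighbours, and runs on chromosomes 15 and 9 held Hoxc genes and genes of glutathione transferases. The DNA of these cells was not measured, so that the number of copies of these regions was not tested.

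The stretch around Yap1 on chromosome 9 runs from Dync2h1 to Cep126, from 6928503 to 8134294 (1.21 Mb). Both ends were set at called loci after the values were seen. Of its 13 pool loci, 10 were called higher, against 2.96% of the pool. The median difference between the mean of the Ago2-low pair and the mean of the other groups was 2.95 on the log2 scale. Within 8 Mb of the start of Yap1, 1 of 34 loci outside the stretch was called higher and none lower, with a median difference of -0.19. The nearest pool loci on either side of the stretch were not called. This contrast with the flanks follows in part from how the ends were set, and it was not tested.

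Besides the genes given above, the stretch holds genes of matrix metalloproteases, which cut collagen and other matrix proteins. Mmp27 was at 7.33 and 8.08 FPKM and Mmp8 at 4.14 and 2.27 FPKM, and both were listed at 0 in the other groups. Mmp13 was at 2.06 and 3.15 FPKM against at most 0.280 FPKM. Birc2, an inhibitor of apoptosis, was at 35.3 and 33.7 FPKM against 7.32, 6.89, 15.3 and 16.2 FPKM. Its neighbour Birc3 was at 17.6 and 22.9 FPKM against 1.66, 0.356, 7.19 and 9.29 FPKM, higher without overlap but under the gap of 1. Not every gene of the stretch differed: Tmem123 was at 32.5 and 34.45 FPKM against 34.1, 32.15, 55.05 and 53.5 FPKM. Mmp3 was at 0.183 and 0.251 FPKM against 0.330, 1.05, 0.0454 and 0.05285 FPKM. Gm45494 and 9230110C19Rik, 2 further called loci beside Yap1, are listed as separate loci and do not overlap it in the coordinates used. Whether fragments from Yap1 were counted for them was not tested.

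**Figure D4:**
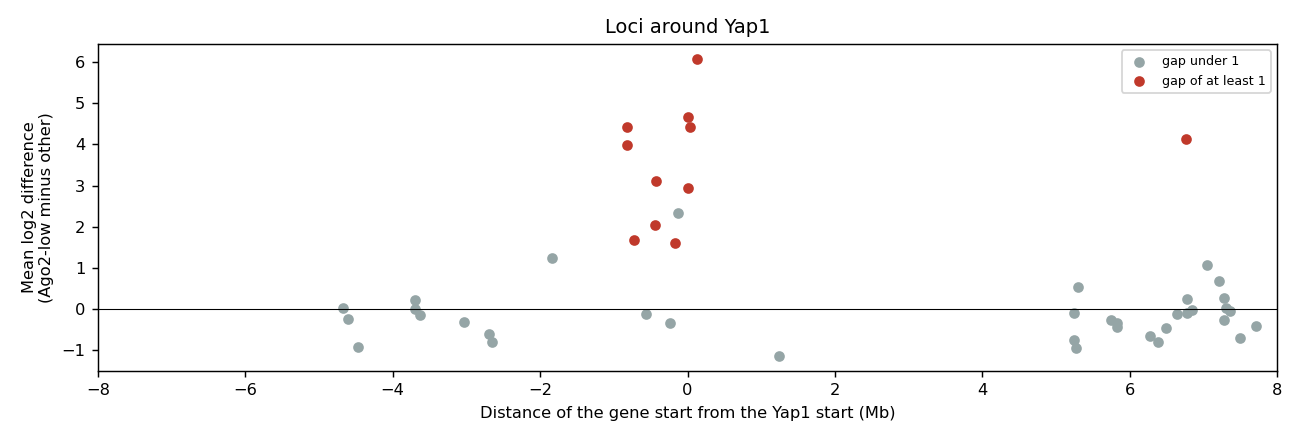
Each point is a pool locus, placed by the distance of its gene start from that of Yap1 in Mb and by the mean log2(FPKM + 1) of the Ago2-low pair minus the mean of the 4 other groups. Red points have a gap of at least 1 and gather close to 0 Mb, with 10 in the stretch around Yap1, whose ends were set at called loci, and 1 outside it.

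A further run on chromosome 1 held Ptgs2, the inducible cyclooxygenase, with its antisense neighbour Ptgs2os and the phospholipase Pla2g4a. Ptgs2 was at 221 and 228 FPKM in the Ago2-low pair against 23.3, 24.4, 20.1 and 9.78 FPKM. A run on chromosome 5 held Areg and Btc, ligands of the EGF receptor, and Parm1. Areg was at 34.8 and 65.8 FPKM against 3.71, 7.05, 0.263 and 0.364 FPKM. Ligands of the same receptor did not move together, since Ereg was lower, at 0.0409 and 0.127 FPKM against 20.2, 22.4, 3.89 and 3.07 FPKM, and Hbegf overlapped between the sides, at 21.2 and 29.0 FPKM against 17.4 to 26.6 FPKM.

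The surroundings of Ago2 were examined in the same way. Of 11 other pool loci that start within 1 Mb of Ago2, 0 were called in either direction. Chrac1, which overlaps the end of Ago2 on the other strand, was at 30.15 and 29.3 FPKM against 33.9, 33.7, 36.7 and 34.55 FPKM. Ptk2, the focal adhesion kinase, was at 47.3 and 43.7 FPKM against 49.25, 45.9, 58.3 and 53.5 FPKM. Trappc9 was at 10.1 and 9.77 FPKM against 8.11 to 9.14 FPKM, and Slc45a4 at 7.90 and 8.11 FPKM against 6.29 to 13.6 FPKM. Ptp4a3, a phosphatase, was lower without overlap but not called, at 0.145 and 0.159 FPKM against 0.849, 1.92, 2.19 and 1.88 FPKM. AC132863.2 was higher without overlap but not called, at 2.42 and 2.61 FPKM against 1.80, 1.39, 1.00 and 0.726 FPKM. With pool shares of 2.96% and 1.94%, no call among 11 loci is not a result about this region.

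Hox genes carry the positional identity of fibroblasts. Of 23 Hox genes in the pool, 5 were called higher and 1 lower, against 2.96% and 1.94% of all pool loci. Without overlap, 11 were higher and 3 lower, against 26.4% and 26.2%. The median difference over the list was 1.04 against -0.01 over all pool loci. The higher genes Hoxc8, Hoxc6, Hoxc4 and Hoxc9 form a run on chromosome 15, from 102966796 to 103036852. Hoxc4 was at 6.53 and 5.69 FPKM, and Hoxc9 at 2.39 and 2.09 FPKM, against at most 0.00720 FPKM in the other groups. Genes of other clusters had other patterns. Hoxb7 was at 17.2 and 17.95 FPKM against 0, 0, 6.47 and 6.67 FPKM, and Hoxb9, which was not called, at 34.05 and 31.6 FPKM against 0.00391, 0.0161, 74.3 and 76.1 FPKM. The 1 lower gene, Hoxa9, was at 0.673 and 0.865 FPKM against 20.75, 25.4, 9.42 and 9.16 FPKM.

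Of 28 other transcription factors of position and mesenchyme, 7 were called higher, among them Pax3, Zic1, Foxf2, Gata4, En1 and Foxd1, and 3 lower, Tbx3, Tbx5 and Alx1. The pool shares were 2.96% and 1.94%. Without overlap, 12 were higher and 6 lower, against 26.4% and 26.2% of the pool. En1, a factor of the limb and hindbrain, was at 4.78 and 4.40 FPKM against 0, 0, 1.36 and 1.38 FPKM. Tbx5, a factor of the forelimb and heart, was listed at 0 in both Ago2-low groups against 3.98, 1.67, 8.30 and 8.77 FPKM. Alx1, a factor of the face, was listed at 0 in both against 2.98, 5.22, 8.25 and 7.455 FPKM. Factors known from different body regions were thus called on both sides, with no test, and the median difference over the list was 0.28.

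Among matrix genes, the collagen list held more lower than higher calls. Of 17 collagen chains in the pool, 4 were called lower (Col1a1, Col1a2, Col5a2 and Col16a1) and 1 higher (Col7a1), with a median difference of -1.50. The pool shares were 1.94% lower and 2.96% higher. Without overlap, 8 chains were lower and 1 higher, against 26.2% and 26.4% of the pool. Col1a2 was at 26.8 and 23.7 FPKM against 86.2, 101, 410 and 577 FPKM, and Col5a2, a chain of type V collagen, at 11.9 and 8.94 FPKM against 97.8, 83.1, 327 and 320.5 FPKM. The anchoring fibril chain Col7a1 was at 31.75 and 27.9 FPKM against at most 7.53 FPKM. Network-forming Col4a1 overlapped, at 56.0 and 54.0 FPKM against 98.45, 47.4, 33.4 and 32.6 FPKM. Of 17 proteoglycans and matrix glycoproteins, Vcan alone was called, at 46.3 and 52.1 FPKM against 5.12, 2.47, 2.92 and 2.98 FPKM. Of 17 matrix proteases and inhibitors, Mmp13 was called higher and Adamts1 lower, the latter at 3.18 and 2.15 FPKM against 20.2 to 36.0 FPKM.

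Fibroblast identity was checked with 20 marker genes that have a locus of their own, of which 14 were in the pool. Vim, the filament protein of mesenchymal cells, was at 2634 and 2580 FPKM against 1439, 1290, 1181 and 952 FPKM, and the markers summed to 3150 and 3120 FPKM in the Ago2-low pair against 1750 to 3120 FPKM, so that Vim made up most of the sum in the Ago2-low pair. Dcn was at 0.193 and 0.638 FPKM against 0.0265 to 1.06 FPKM, and Col3a1 at 6.93 and 6.60 FPKM against 9.78 to 30.9 FPKM. Pdgfra was at 0.488 and 0.903 FPKM against 2.62 to 8.725 FPKM. Of the 14, only Col1a1 and Col1a2 were called, both lower, where the pool shares were 1.94% lower and 2.96% higher. Fn1 was at 290 and 326 FPKM against 46.4, 95.2, 567 and 600 FPKM, and the table marks its estimate as failed in some comparisons. Acta2, the actin of smooth muscle, differed mainly between the other pairs, at 1.75 and 1.92 FPKM against 0.644, 3.77, 1644 and 1252 FPKM. Of 17 contractile genes 1 was called higher (Synpo2) and 1 lower (Tagln, at 0.363 and 0.333 FPKM against 2.90, 2.33, 648 and 444 FPKM).

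Most markers of other cell types were under 1 FPKM in every group. This held for all 8 endothelial, 8 of 10 macrophage, 7 of 8 epithelial and 6 of 8 neural and glial markers. The neural and glial markers still summed to 53.2 and 58.3 FPKM in the Ago2-low pair against 41.6 to 67.9 FPKM. Of 2 macrophage markers in the pool, Cd14 was called higher, at 14.45 and 16.65 FPKM against 2.40 to 5.60 FPKM. The other was lower without overlap, as was 26.2% of the pool, but was not called. The 10 macrophage markers summed to at least 16.1 FPKM in both Ago2-low groups against 3.92 to 7.69 FPKM. Cd14 made up most of this sum in the Ago2-low pair. The epithelial keratin Krt19 was called lower, at 0.703 and 0.395 FPKM against 3.43, 2.81, 15.8 and 11.7 FPKM. The 11 muscle markers summed to 75.6 and 77.8 FPKM in the Ago2-low pair against 0.857 to 3.80 FPKM, and this sum rested on 2 genes. Tnnt2, the cardiac troponin T, was at 56.4 and 65.8 FPKM against 2.76, 0.799, 3.30 and 1.24 FPKM, and Myf5, a determination factor of muscle, was at 18.9 and 11.8 FPKM and listed at 0 elsewhere. The other 9 muscle markers were under 1 FPKM in every group. The part of these markers in the results was not tested.

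Of 7 markers of pluripotent cells, Sox2 (5.72 and 5.86 FPKM against at most 0.00399) and Esrrb (2.21 and 2.27 FPKM against at most 0.0543) were called higher and the other 5 were under 1 FPKM in every group. The locus of Sox2 lies within a long overlapping transcript, whose fragments could be counted for it. Of 3 adipocyte markers in the pool, Cebpa was called higher, at 3.15 and 2.89 FPKM against at most 0.160 FPKM, and Pparg overlapped. The remaining marker was lower without overlap but not called, and the median difference over the 3 was -0.84. Imprinted genes gave 2 higher calls of 16, against 2.96% of the pool. These were Ndn, at 11.2 and 11.3 FPKM, and Peg3, at 2.68 and 2.13 FPKM, both at no more than 0.0565 FPKM elsewhere.

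**Figure D5:**
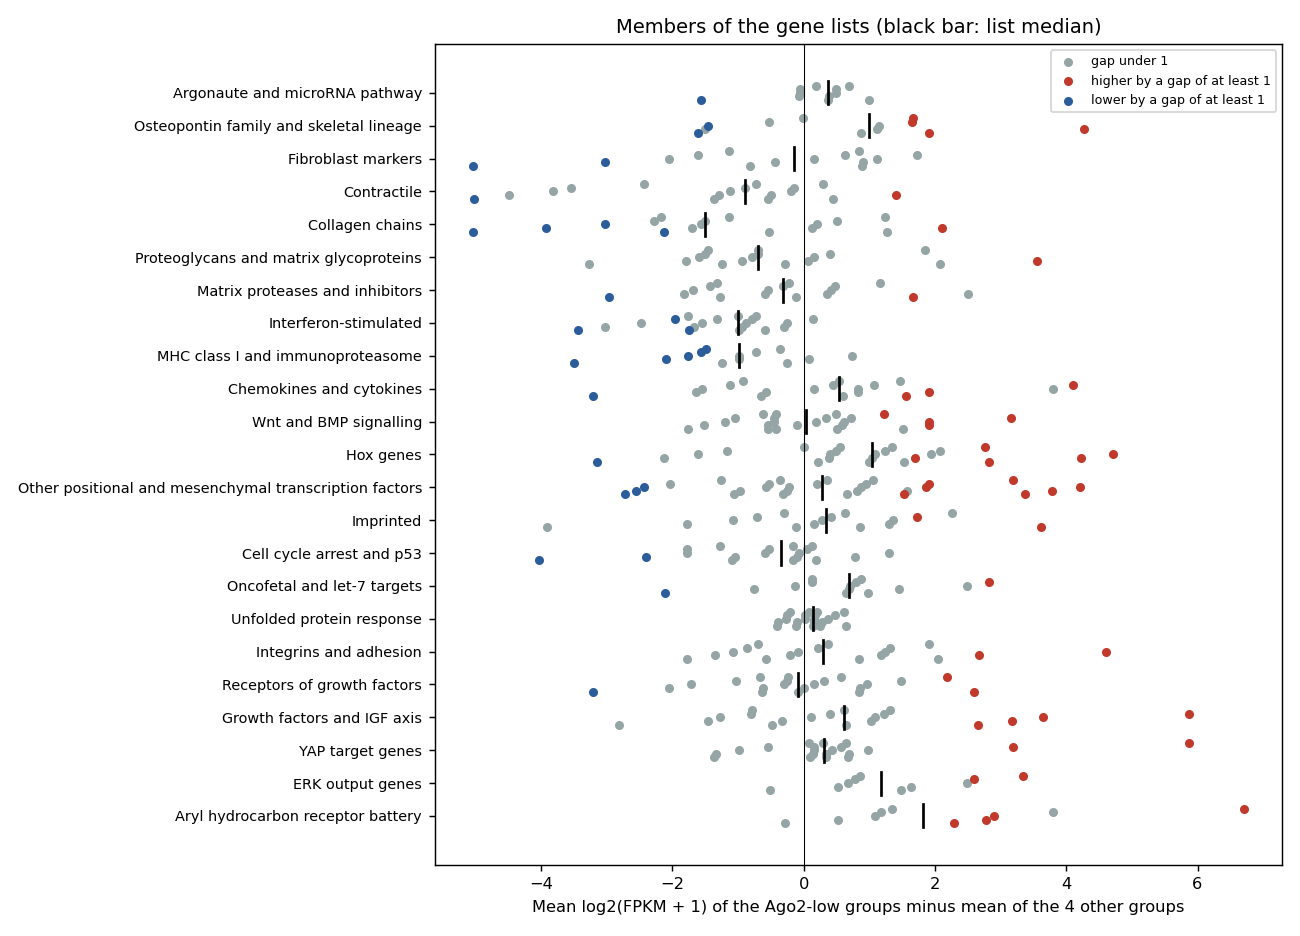
Each point is a gene of the list named at the left, placed by the mean log2(FPKM + 1) of the Ago2-low pair minus the mean of the 4 other groups, and black bars are list medians, shown for lists with at least 10 pool genes. Red and blue points have a gap of at least 1 and are absent from the unfolded protein response, whose 21 genes lie close to 0.

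Among secreted factors, receptors and adhesion proteins most genes of each list were not called, and more were called higher than lower. The pool as a whole also held more higher (361 of 12214, 2.96%) than lower (237, 1.94%) loci. Of 19 growth factors and proteins of the insulin-like growth factor axis, 4 were called higher and none lower: Igfbp3, Igfbp6, Igfbp7 and Fgf7. Without overlap, 9 were higher and 3 lower, against 26.4% and 26.2% of the pool. Fgf7, a growth factor that acts on epithelia, was at 77.46 and 90.99 FPKM against 0.258, 0.397, 35.6 and 31.6 FPKM. Of 24 genes of Wnt and BMP signalling, Wnt7b, Wnt4, Bmp4 and the BMP target Id1 were called higher, Id1 at 117 and 128 FPKM against 24.0 to 39.9 FPKM. Of these 24, 7 were higher and 2 lower without overlap. Bmp4 also belongs to the 12 skeletal genes, of which Spp1, Bmp4, Mmp13 and Dlx3 were called higher and Msx1 and Msx2 lower. The call of Spp1, a marker given for this comparison, was known beforehand. Runx2, the master factor of bone, was at 20.6 and 21.3 FPKM against 8.14 to 14.4 FPKM and was not called.

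Among 21 receptors of growth factors, Epha4 and Bmpr1b were called higher and Ephb2 lower, the latter at 0.0302 and 0.00997 FPKM against 5.77 to 12.3 FPKM. Among 18 integrins and adhesion genes, Cdh6 and Vcam1 were called higher, Vcam1 at 57.5 and 59.3 FPKM against 2.61, 2.21, 22.9 and 26.8 FPKM. Of 19 chemokines and cytokines, Areg, Il33 and Csf1 were called higher and Ereg lower, against 2.96% and 1.94% of the pool. Without overlap, 8 of these genes were higher and 6 lower. The counts were 7 and 4 for the receptors and 8 and 3 for the adhesion genes, against 26.4% and 26.2% of the pool. Csf1, the growth factor of macrophages, was at 271 and 258 FPKM against 70.7, 70.1, 126 and 101 FPKM. Cxcl12 was not called, since it was at 244 and 194 FPKM in the Ago2-low pair and at 237 and 245 FPKM in 1 other pair, but at 0.0157 and 0.0127 FPKM in the remaining one.

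Genes of the interferon response and of antigen presentation were mostly lower. Of 19 interferon-stimulated genes, 3 were called lower (Cxcl10, Ifih1 and Bst2), none higher, and 16 were lower without overlap, with a median difference of -1. Over the pool, 1.94% of loci were called lower and 26.2% were lower without overlap. Cxcl10, a chemokine of T cells, was at 0.429 and 0.581 FPKM against 26.05, 15.96, 8.97 and 14.15 FPKM. Ifih1, a sensor of double-stranded RNA, was at 0.0748 and 0.0586 FPKM against 6.81, 4.29, 1.37 and 2.06 FPKM. Ifitm3 overlapped, at 110 and 127 FPKM against 74.4 to 138 FPKM.

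Of 13 genes of MHC class I and the immunoproteasome, 5 were called lower and none higher, and 10 were lower without overlap, against 1.94% called lower and 26.2% lower without overlap in the pool, with a median difference of -0.99. H2-D1, a classical class I heavy chain, was at 25.2 and 27.5 FPKM against 170, 156, 77.4 and 88.9 FPKM. H2-K1 was at 18.8 and 25.2 FPKM against 52.2 to 76.1 FPKM, and H2-Q4 at 0.281 and 0.234 FPKM against 7.67 to 18.4 FPKM. Tap1 and Tap2, which carry peptides into the ER, were under 0.33 FPKM in the Ago2-low pair and at 1.91 FPKM or more elsewhere. The light chain B2m was at 217 and 230 FPKM against 251.5 to 356 FPKM, lower without overlap but not called. Class I heavy chains resemble each other closely, so that their fragments could be split between genes.

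For p53 and cell cycle arrest, 2 of 18 genes were called lower, Trp53 itself and Cdkn2c, an inhibitor of the kinases CDK4 and CDK6, at 4.955 and 5.16 FPKM against 27.5 to 36.25 FPKM. Without overlap, 8 were lower and 1 higher. In the pool, 1.94% were called lower, 26.2% were lower without overlap and 26.4% higher without overlap. Known targets of p53 were lower to a lesser degree or overlapped. Mdm2 was at 22.9 and 20.5 FPKM against 58.0, 52.1, 38.7 and 37.65 FPKM, and Ccng1 at 12.95 and 13.5 FPKM against 24.35 to 35.6 FPKM, both under the gap of 1. Cdkn1a was at 19.6 and 30.3 FPKM against 66.4, 57.4, 11.3 and 10.2 FPKM. The locus of Cdkn2a was at 261 and 279 FPKM against 180.5 to 346 FPKM and overlapped.

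Of 14 oncofetal genes and targets of the let-7 microRNAs, which Argonautes use as guides, Hmga2 was called higher and Ccnd2 lower, with a median difference of 0.69. The pool shares were 2.96% and 1.94%. Without overlap, 8 were higher and 2 lower, against 26.4% and 26.2% of the pool. Hmga2, a chromatin protein, was at 306 and 360 FPKM against 104, 149, 19.2 and 14.7 FPKM, and its gap of 1.03 fell to 0.994 and 0.896 once the groups were scaled to the same median or sum. Ccnd1, a cyclin of the G1 phase, was at 207 and 193 FPKM against 85.7, 114, 13.4 and 10.6 FPKM and was not called. Ccnd2 was at 14.6 and 15.1 FPKM against 56.3 to 73.3 FPKM.

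The unfolded protein response, the program that tunicamycin and thapsigargin are used to evoke, gave no call among its 21 genes. With pool shares of 2.96% called higher and 1.94% called lower, no call among 21 genes is not a result by itself. Hspa5, the main chaperone of the ER, was at 6746 FPKM in Ago2+/+ tunicamycin and 7682 in Ago2-/- DMSO against 4808, 3677, 5367 and 5155 FPKM. Ddit3, the factor CHOP, was at 282 and 339 FPKM against 237, 253, 345 and 349 FPKM, and Herpud1 at 349 and 334 FPKM against 293, 207, 431 and 492.5 FPKM. The Ago2-low pair holds 1 group labelled with a stressor and 1 labelled with DMSO, and these values did not set them apart. The largest difference between the means of both sides was 0.64, for Dnajb9. The sensor gene Atf6, which is not in the list and was named after its values were seen, was called higher in a run on chromosome 1, at 68.1 and 66.6 FPKM against 32.3, 24.8, 28.9 and 30.2 FPKM.

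Lists of genes tied to YAP, to ERK and to the aryl hydrocarbon receptor were added after values of leading genes were seen and show only what accompanied them. Of 20 genes known as targets of YAP, 2 were called higher, against 2.96% of the pool, and the median difference was 0.32. These were Igfbp3, a leading gene seen before the list was made, and Foxf2. The widely used targets Ctgf, at 17.9 and 13.4 FPKM against 10.7, 7.45, 260 and 125 FPKM, Cyr61, at 178 and 179 FPKM against 80.3, 59.0, 364 and 256 FPKM, and Ankrd1, at 89.5 and 88.1 FPKM against 53.5, 46.5, 163 and 118 FPKM, lay between the levels of the other pairs. Of the 20 targets, 8 were higher without overlap, against 26.4% of the pool, and 16 had a mean difference above 0.

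Of 10 genes known to rise with ERK signalling, Dusp4 and Epha4 were called higher and 7 were higher without overlap, against 2.96% and 26.4% of the pool. The median difference was 1.17. Dusp4, a phosphatase of ERK, was at 37.0 and 40.2 FPKM against 5.045, 4.32, 2.06 and 1.35 FPKM, and Dusp6 was at 31.6 and 40.6 FPKM against 11.5, 18.7, 8.84 and 7.09 FPKM. Etv5 overlapped, at 8.25 and 11.8 FPKM against 10.4 to 22.9 FPKM.

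Of 10 genes around the aryl hydrocarbon receptor, a sensor of aromatic compounds, 4 were called higher, against 2.96% of the pool, with a median difference of 1.82. Aldh3a1 is 1 of the 4 and was seen before the list was made, so that its call was known beforehand. The receptor gene Ahr was at 23.2 and 23.3 FPKM against 1.87, 1.99, 2.59 and 2.62 FPKM. Besides Aldh3a1, the glutathione transferases Gsta1, at 9.93 and 11.97 FPKM against 3.50, 0.993, 0.0173 and 0 FPKM, and Gsta2, at 4.17 and 4.425 FPKM against at most 0.186 FPKM, were higher. Nqo1 was not, at 4.95 and 5.12 FPKM against 0.335, 0.763, 10.5 and 10.6 FPKM. The Gsta genes are close copies, whose fragments could be split. In the promoter windows, GCGTG, the core of the response element of this receptor, was matched in 47.7% of higher and 49.4% of lower genes. The share was 58.2% of pool genes and 32.4% of all promoters, and these shares were not tested. GCGTG holds a CpG, and the promoters of both called sets held fewer CpG than the pool, as given above. The part of this in the shares was not tested.

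The called loci also differed in how the 4 other groups stood to each other. Among the 361 higher loci, 43 were higher by at least 1 on the log2 scale in the pair with Ago2+/+ DMSO than in the pair with Ago2+/+ thapsigargin, and 36 the other way. Among the 237 lower loci these counts were 12 and 29. The median range over the 4 other groups was 0.562 at the higher and 0.699 at the lower loci. Of the higher loci, the 144 under 1 FPKM in all other groups cannot differ by 1 on this scale.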

How the data were processed

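Total RNA of 18 libraries of mouse embryonic fibroblasts was sequenced, 3 libraries in each of 6 groups, grouped by their titles. According to the methods of the study and the submitters' processing notes, the authors checked reads with FastQC 0.11.7, aligned them with HISAT2 2.1.0 against Ensembl release 91 (GRCm38), assembled transcripts with StringTie 1.3.4d and quantified loci with Cuffdiff 2.2.1. The deposited FPKM is 1 estimate by the authors per locus and group over its libraries, so no library, replicate or depth can be examined. How libraries were scaled and whether strand was used is stated in none of these sources. The table also holds the authors' fold changes, test statistics, p-values and q-values for pairs of groups, which were not used.

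One value per group was taken for each of 51499 loci. Loci on autosomes with 1 gene symbol (some with several Ensembl identifiers) and at least 1 FPKM in at least 1 group (12214 loci) formed the pool. Gaps were computed on log2(FPKM + 1) with Python 3.11.15, pandas 2.3.3 and numpy 2.4.6, and figures were drawn with matplotlib 3.10.9. The sorting was tried on simulated data with raised baseline levels and planted changes well above the threshold. That trial checked the calculation only and says nothing about calls at low levels. The pseudocount of 1 understates ratios of low loci. Ratios are given only where the lower side reaches 1 FPKM. Coordinates are those of GENCODE M21 (GRCm38), matched by Ensembl identifier for 11815 pool loci. Promoter sequences are from RefSeq, matched by symbol.

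No test was run, since the groups were chosen on these values and have no replicate values. The genes named are Ago2, Spp1, the 20 largest gaps in each direction (predicted genes, pseudogenes and ribosomal protein genes left out), called members of 27 gene lists, up to 4 uncalled members of a list, loci at the threshold and neighbours of Ago2. Other names, the runs and 3 added lists were chosen after values were seen. The members and all lists were chosen with earlier results of these data known. Some items, with results that need them, are not reported here. In 15 alternatives the pseudocount, filter, scaling, rule or groups were changed.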

Additional observations from a re-analysis of the deposited data

How the results depend on the processing

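The number of autosomal loci higher in both Ago2-low groups, 361, became 171 with a pseudocount of 5, 840 when means of log2 values were compared and 106 at a gap of at least 2. The number of autosomal loci lower in both Ago2-low groups, 237, became 469 with a pseudocount of 0.1, 74 with a pseudocount of 5, 768 with means of log2 values and 65 at a gap of at least 2. These moves follow from the construction of the alternatives: a larger pseudocount shrinks the gaps of low loci, and means are less strict than the extremes. Under the other alternatives (no filter, a filter of 5 FPKM, scaling to the same median or sum, loci of several genes, and leaving out each group in turn) both counts stayed within 1.5 times their value. Scaling to the same sum kept 325 of the 361 higher and all 237 lower loci. Of 105 named genes, 33 fell under the gap of 1 with a pseudocount of 5, 45 under a gap of 2, 1 with scaling to the same median (Hmga2) and 3 with scaling to the same sum (Hmga2, Csf1 and Vcam1), and none changed direction. No paired analysis was possible because the table holds 1 pooled value per group, and for the same reason no library could be left out, including the 4 with conflicting labels. Depth is unknown, so that values under 1 FPKM and zeros cannot be told apart.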

Other observations

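Genes of iron, lipid and redox metabolism that belong to none of the lists also lay among the higher loci, and were picked out after their values were seen. Ftl1, the light chain of ferritin, was at 3310 and 3210 FPKM in the Ago2-low pair against 1043, 1162, 957 and 942 FPKM. Plin2, the coat protein of lipid droplets, was at 314 and 298 FPKM against 45.65, 44.2, 44.2 and 36.6 FPKM. Aldh2, the mitochondrial aldehyde dehydrogenase, was at 285 and 261 FPKM against 29.9, 27.2, 31.8 and 41.6 FPKM. Pgd, an enzyme of the pentose phosphate pathway, was at 328 and 337 FPKM against 72.7, 62.5, 88.4 and 76.5 FPKM. In these 4 genes the other groups were close to each other and both Ago2-low groups stood above them.

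A few guidance genes were also picked out after their values were seen, with no list or count behind them. Slit2, a guidance cue, was at 1.74 and 2.94 FPKM against 37.3, 44.8, 22.6 and 23.2 FPKM, Robo1, its receptor, at 0.0222 and 0.0251 FPKM against 2.59 to 5.96 FPKM, and Sema3a at 1.47 and 1.76 FPKM against 22.4, 10.5, 61.6 and 57.0 FPKM. Sema3c was instead higher, at 91.8 and 81.05 FPKM against 9.08, 7.90, 11.8 and 14.05 FPKM. Gsn, which severs actin filaments, was among the abundant lower genes, at 33.85 and 30.5 FPKM against 189, 147, 160 and 150 FPKM.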
